A study of Sus scrofa with 54 samples.

Results

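Gene expression in the ileum of indoor sow-reared (IN) piglets was compared between day 56 and day 28, a span of 4 weeks that began at weaning. The comparison used 6 piglets killed at day 56 and 6 killed at day 28, 12 of the 54 piglets in the series, chosen by their sample titles. One GeneChip Porcine Genome array was hybridised per piglet with RNA from a piece of whole ileum, so each array holds epithelium, immune cells, vessels and muscle together. The IN piglets of day 28 had suckled their own mother in an indoor pen until that day. The IN piglets of day 56 had been weaned at day 28 and then ate creep feed freely indoors, so the effects of 4 more weeks of age, of weaning and of the solid diet cannot be told apart. Piglets of both ages came from Large White x Landrace sows mated to a single boar, 3 piglets per sow, and different animals were killed at each age. The labels do not say which piglets were littermates. For reference the same interval was measured in outdoor sow-reared (OUT) piglets and in isolator-reared (IR) piglets, which had been moved from indoor sows into isolators soon after birth, given milk replacer for the suckling period and antibiotics every day, with 6 piglets per group and day.

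The ileum is the last stretch of the small intestine. In newborn pigs its enterocytes take up whole milk proteins by endocytosis and digest them in large lysosomes, and these vacuolated cells are replaced during the first weeks of life by enterocytes that digest food at their brush border. The same weeks fill the mucosa with lymphocytes. Plasma cells of the lamina propria then secrete dimeric IgA, which epithelial cells carry into the gut lumen on the polymeric immunoglobulin receptor, and cytotoxic lymphocytes settle between the epithelial cells.

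Signals are gcRMA values on the log2 scale, so a difference of 1 is a 2-fold change. A probeset was called different when its unadjusted limma p was below 0.01 and its change at least 2-fold, the criterion used by the study, and p-values after Benjamini-Hochberg adjustment over the whole set of probesets are given beside it. Of 23935 probesets tested, 473 were called (1.98%), 293 of them higher at day 56 (1.22%) and 180 lower (0.752%). The adjusted p was below 0.05 for 320 probesets (1.34%), 185 higher and 135 lower, and 164 probesets met both rules. All 6 day 56 values lay above all 6 day 28 values in 307 probesets (1.28%) and below them in 309 (1.29%). The platform annotation gave a single symbol to 223 of the called probesets, which name 208 genes, 101 higher and 107 lower. When each of 6765 named genes was represented by its brightest probeset, 80 were called higher (1.18%) and 83 lower (1.23%), and the median log2 difference over all of them was -0.05. Gene lists below are counted in that way and are read against those shares. The plot of all probesets shows the spread of both directions.

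**Figure D1:**
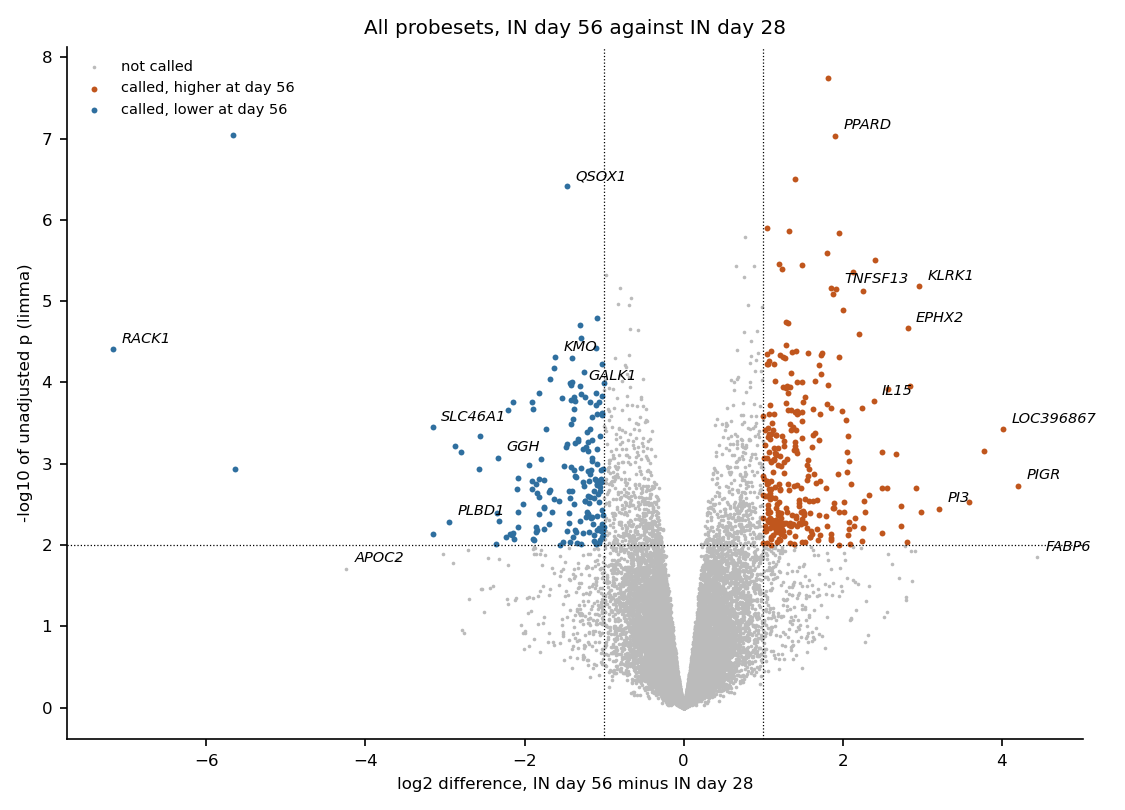
Log2 difference (IN day 56 minus IN day 28, horizontal) against -log10 of the unadjusted limma p (vertical) for 23935 probesets, with dotted lines at the 2-fold and 0.01 limits. The 293 probesets called higher are at the upper right and the 180 called lower at the upper left, where the RACK1 probeset lies farthest from 0.

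The 6 arrays of day 56 resembled each other more than those of day 28. Each array's mean correlation with the others of its group was between 0.9797 and 0.9820 at day 56 and between 0.9346 and 0.9553 at day 28, and the median SD of a probeset was 0.258 at day 56 against 0.378 at day 28. Day 28 piglet 3 had the lowest correlation. FABP6, the bile acid binding protein of ileal enterocytes, was bright in the 6 day 56 piglets, between 13.72 and 14.35. It lay between 6.33 and 13.04 in 5 of the day 28 piglets and at 2.52 in piglet 3. Day 28 piglets 2 and 6 stood apart in markers of B cells and germinal centres, whose 5 measured members averaged 5.86 to 6.73 at day 56, against 10.62 and 10.59 in these 2 piglets and 5.28 to 5.99 in the other 4 of day 28. Without piglet 3 the comparison gave 405 calls, 252 higher and 153 lower. Without piglets 2 and 6 it gave 705 calls, 349 higher and 356 lower. The p-values set each difference against the spread between these piglets, taken as independent, and the number of arrays limits their precision. A block by label number, over 10 arrays, left 0 probesets with an adjusted p below 0.05, and a block of numbers in twos left 18. With exact permutation of the 12 piglets the smallest two-sided p that 6 against 6 can give is 0.00216.

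**Figure D2:**
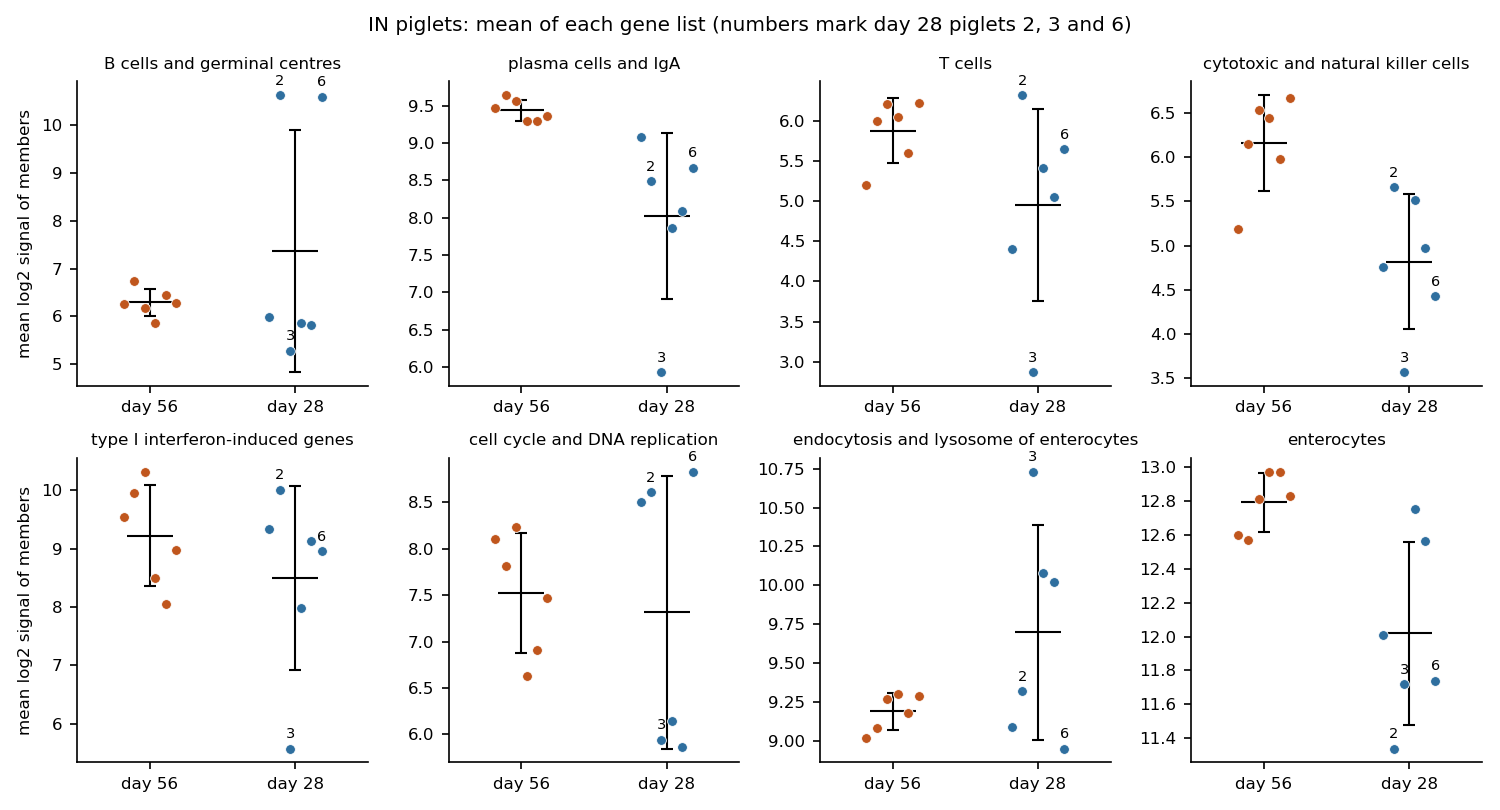
Mean log2 signal of the measured members of 8 gene lists (vertical axes, each with its own range) in each IN piglet, day 56 left and day 28 right. Points are piglets, the line and bars are mean and SD (6 piglets a group), and numbers mark day 28 piglets 2, 3 and 6. The day 28 piglets scatter more than the day 56 piglets in all 8 lists, piglets 2 and 6 are highest for B cells, and piglet 3 is lowest for T cells and highest for the lysosome list.

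Several genes of the IgA system were higher at day 56. Of 17 listed plasma cell and IgA genes 7 were measured, and 3 of these rose and none fell, with a median log2 difference of 1.53. Without day 28 piglet 3 this median was 0.91 and 2 of the 7 were called. In what follows, 3 values for a group are its lowest, median and highest piglet. PIGR, the receptor that carries IgA across the epithelium, measured 10.93, 11.15 and 11.60 at day 56, against 2.22, 7.64 and 9.91 at day 28. Every day 56 piglet stood above every day 28 piglet, and the day 28 piglets ranged from near background to almost the later level. The difference was 4.21 ± 1.06 (SE), an unadjusted p of 0.00186 and an adjusted p of 0.0813, and it was 3.26 without day 28 piglet 3. TNFRSF17, the BCMA receptor of plasma cells, measured 4.78, 5.25 and 5.93 at day 56, against 2.62, 3.72 and 4.40 at day 28, again without overlap. It rose by 1.63 ± 0.31 (adjusted p = 0.0324). Its ligand TNFSF13, the survival factor APRIL, measured 4.84, 5.37 and 5.76 at day 56, against 2.37, 3.63 and 4.02 at day 28. These groups did not overlap either, and the rise was 1.92 ± 0.26 (adjusted p = 0.00738).

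CCL28, an epithelial chemokine that draws IgA plasma cells to mucosae, measured 5.58, 5.88 and 7.39 at day 56, against 2.13, 3.18 and 6.25 at day 28. Day 28 piglet 1 alone reached the later range, and the other 5 lay below every day 56 piglet. The rise was 2.67 ± 0.60 (adjusted p = 0.0538). CD38, an ectoenzyme abundant on plasma cells, rose by 1.53 ± 0.50 (6.05, 6.67 and 7.14 at day 56, against 3.16, 5.39 and 6.52 at day 28). The groups overlapped, and the CD38 call was lost in 8 of the 12 fits that each left out 1 piglet, with differences of 1.14 to 1.81 and p up to 0.0225. JCHAIN, the chain that joins IgA into dimers, had 12.60 to 13.06 at day 56, against 4.70 to 12.29 at day 28, where piglet 3 held the 4.70 and the other 5 had at least 10.91. Its groups did not overlap (exact permutation p = 0.00216, the smallest possible), but its limma p was 0.0819 and it was not called. Without piglet 3 its difference was 0.91, less than 2-fold. XBP1, the transcription factor of secretory cells, differed by 0.17 ± 0.14 and was not called. In a whole-tissue sample fewer cells of a type and less RNA per cell cannot be told apart.

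**Figure D3:**
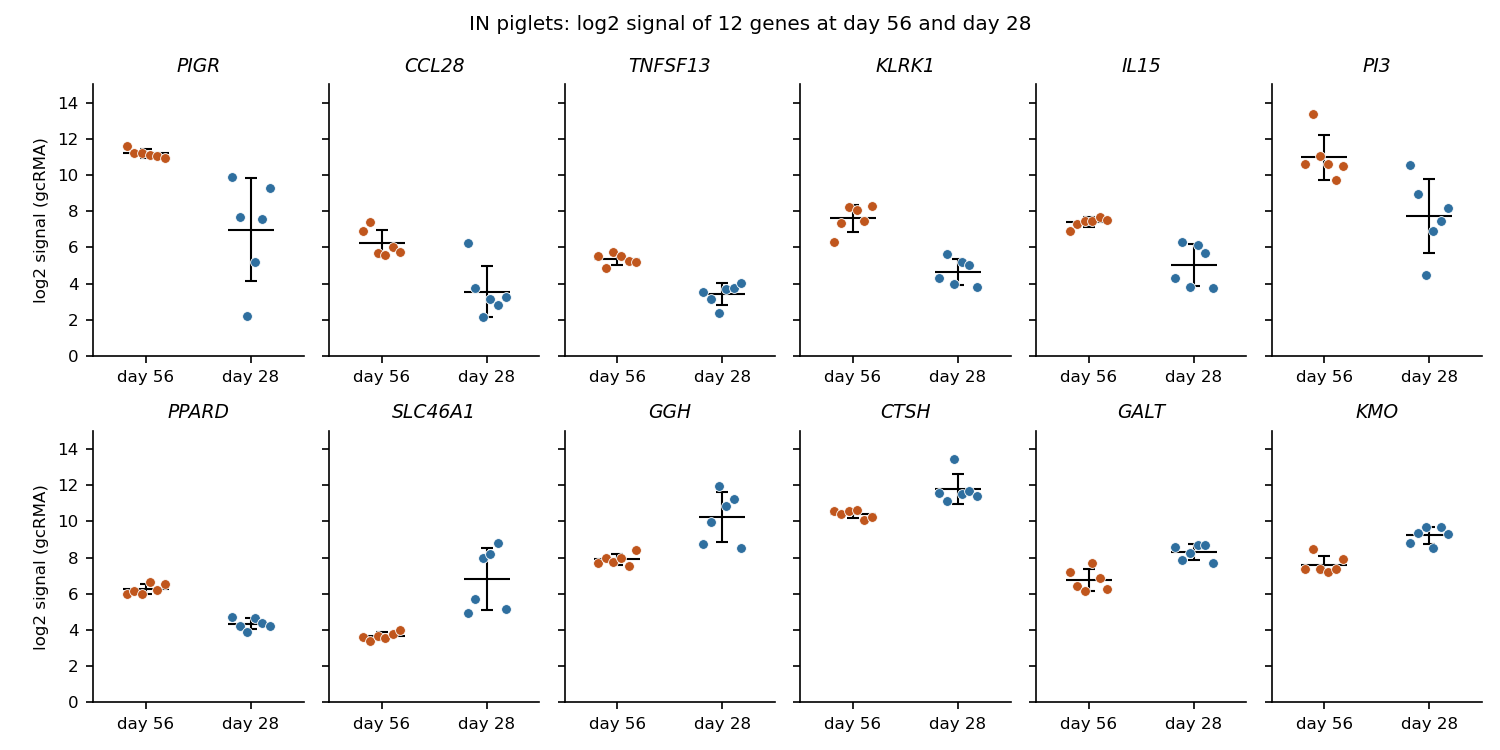
Log2 signal (gcRMA, vertical, 0 to 15) of 12 genes in each IN piglet, day 56 left and day 28 right in each panel. Points are piglets and the line and bars are mean and SD of 6 piglets. The 7 genes PIGR to PPARD are higher at day 56 and the 5 genes SLC46A1 to KMO are lower, and the groups overlap only in CCL28 and PI3.

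Several genes of cytotoxic lymphocytes were higher at day 56. Of 24 listed cytotoxic and natural killer genes 8 were measured, of which 4 rose and none fell, with a median of 1.40. KLRK1, the activating receptor NKG2D of natural killer and CD8 T cells, measured 6.30, 7.74 and 8.26 at day 56, against 3.79, 4.66 and 5.61 at day 28. No day 28 piglet reached the lowest day 56 piglet, and KLRK1 rose by 2.96 ± 0.39 (adjusted p = 0.00738). IL15, the cytokine that maintains natural killer cells and intraepithelial lymphocytes, measured 6.92, 7.46 and 7.69 at day 56, against 3.77, 5.01 and 6.28 at day 28. It too was without overlap, with a rise of 2.39 ± 0.45 (adjusted p = 0.0306).

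GNLY, CCL5 and IFNG were the other members of the list that rose. The cytolytic protein gene GNLY measured 6.20, 8.17 and 8.98 at day 56, against 3.56, 5.72 and 7.84 at day 28, a rise of 2.25 ± 0.72. CCL5, a chemokine of cytotoxic T cells, measured 10.31, 11.04 and 11.43 at day 56, against 6.23, 9.65 and 10.15 at day 28, a rise of 1.85 ± 0.58. Only in CCL5 of these 2 did the groups stay apart. IFNG, which encodes interferon gamma, was dim in both groups and rose by 1.48 ± 0.48 (3.17, 3.91 and 5.97 at day 56, against 2.29, 2.76 and 3.39 at day 28). These 3 calls were not firm: 9, 7 and 8 of the 12 fits that left out 1 piglet ended the calls of GNLY, CCL5 and IFNG, with p up to 0.0222, 0.0169 and 0.0220, and all 3 had an adjusted p above 0.05. Without day 28 piglet 3 the list held 2 called genes, and without piglets 2 and 6 it held 1. Among the members not called, FASLG differed by 0.52, GZMH by 1.31 and the perforin gene PRF1 by -0.03.

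T cell genes had fewer calls. Of 13 measured T cell genes 1 was called, with a median of 0.93. That gene, CD3G of the T cell receptor complex, measured 6.93, 8.23 and 8.39 at day 56, against 2.77, 6.32 and 7.80 at day 28, and rose by 2.10 ± 0.69. Its partner CD3E differed by 2.15 ± 0.87 (adjusted p = 0.251) and was not called, and CD4 differed by 0.82 ± 0.23. Day 28 piglet 3 was lowest for T cells, since list means were 5.20 to 6.22 at day 56, against 2.87 in that piglet and 4.41 to 6.32 in the other 5 of day 28. Without it the T cell median was 0.49 and CD3G differed by 1.46, still called. Without piglets 2 and 6 the median was 1.70 and 4 members were called. The CD3G call was lost in 8 of the 12 fits without 1 piglet, with p up to 0.0214.

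Other leukocyte genes rose as well. CCR9, the receptor that brings T cells to the small intestine, measured 6.38, 7.31 and 7.86 at day 56, against 3.01, 5.52 and 6.58 at day 28, and rose by 1.89 ± 0.52. MYO1F, a myosin of white blood cells, measured 5.21, 5.50 and 6.31 at day 56, against 2.84, 3.99 and 4.20 at day 28. Its groups were fully apart and it rose by 1.86 ± 0.25 (adjusted p = 0.00738). JAML, a leukocyte adhesion molecule, rose by 1.53 ± 0.41, and IL18BP, the soluble inhibitor of interleukin 18, rose by 2.16 ± 0.63, both with overlapping groups. The IL18BP call was lost in 5 of the 12 fits without 1 piglet (p up to 0.0121). In the chemokine list 3 of 25 measured genes rose (CCL28, CCL5 and CCR9) and none fell, and in the cytokine list 4 of 40 rose (IL15, IL18BP, TNFSF13 and IFNG) and none fell, with medians of 0.40 and 0.08. Without day 28 piglet 3 these medians were 0.11 and 0.01, with 3 calls in each list.

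No B cell gene passed the test. LTB, a lymphotoxin subunit of lymphoid follicles, had 3.54 to 5.13 at day 56, against 10.89 and 10.95 in day 28 piglets 2 and 6 and 3.93 to 5.05 in the other 4 of day 28. The LTB difference of -2.52 ± 1.25 was not called, and without these 2 piglets it was -0.39. The chemokine receptor gene CXCR4 had the same 2 piglets on top, at 11.22 and 11.09, and differed by -1.11 ± 0.61. None of the 5 measured B cell genes was called, with a median of -0.77, and 1 was called without piglets 2 and 6, with a median of 0.35. What part this difference in B cell markers had in the other results was not tested.

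A few genes of mucosal defence were higher at day 56, while their list as a whole was not. In the antimicrobial list 3 of 27 measured genes (PI3, DUOX2 and PIGR) rose and none fell, and the list median was -0.02. PI3, the elastase inhibitor elafin, measured 9.72, 10.60 and 13.38 at day 56, against 4.49, 7.81 and 10.55 at day 28. Piglet 1 of day 28 fell within the day 56 range and piglet 2 of day 56 stood above all others, and the rise was 3.22 ± 0.89 (adjusted p = 0.108). DUOX2, which makes hydrogen peroxide at the epithelial surface, was dim but separate, with 3.73, 4.28 and 5.29 at day 56, against 1.79, 3.28 and 3.53 at day 28. It rose by 1.32 ± 0.34. For BPI, a protein that binds bacterial endotoxin, the brighter probeset differed by 1.64 ± 0.56 and was not called, while the dimmer one differed by 2.08 (adjusted p = 0.0577). The protease inhibitor SLPI ran the other way, at 8.80, 10.87 and 11.85 at day 56, against 11.09, 11.96 and 13.46 at day 28, with an exact permutation p of 0.0433 and no call.

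Of 24 measured complement genes 2 rose and none fell, with a median of 0.11, and 1 was called without day 28 piglet 3. C5, from which the anaphylatoxin and the start of the membrane attack complex are cut, measured 10.50, 10.91 and 11.20 at day 56, against 8.61, 9.53 and 10.71 at day 28. One piglet of day 28 reached the day 56 range, and C5 rose by 1.41 ± 0.29 (adjusted p = 0.0405). C9, the pore-forming last component, rose by 1.02 ± 0.27 but lay at the 2-fold limit, and its call was lost in 4 of the 12 fits without 1 piglet, where the smallest difference was 0.85. C3, the central component, was bright at both ages and differed by 0.59 ± 0.18, less than 2-fold.

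A few lysosomal genes fell. In the list of enterocyte endocytosis and lysosome 26 of 36 genes were measured, none rose and 3 fell, 21 had a negative difference, and the median was -0.43. By the probeset of smallest p instead, 1 gene of the list rose and 4 fell. CTSZ, a lysosomal carboxypeptidase, measured 9.93, 10.29 and 10.46 at day 56, against 10.90, 11.28 and 12.70 at day 28. CTSH, a lysosomal aminopeptidase, measured 10.06, 10.49 and 10.65 at day 56, against 11.11, 11.56 and 13.45 at day 28. In both genes all day 28 piglets lay above all day 56 piglets and piglet 3 was the highest. CTSZ fell by 1.23 ± 0.27 (adjusted p = 0.0488) and CTSH by 1.38 ± 0.33 (adjusted p = 0.0658). Without piglet 3 the CTSZ difference was -0.98, just under 2-fold. NPC2, which hands cholesterol out of the lysosome, fell by 1.10 ± 0.36, a call lost in 9 of the 12 fits without 1 piglet (p up to 0.0237). A dimmer NPC2 probeset, at 8.10 on average at day 56, differed by -0.61 and was not called. NPC1, the partner of NPC2, did not follow, with a difference of 0.87 ± 0.27 that was under 2-fold.

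The spread at day 28 was wide in this group of genes. NEU1, the lysosomal sialidase, had 5.59 to 6.32 at day 56, whereas at day 28 it had 10.97, 9.93 and 9.44 in piglets 3, 4 and 5 and 6.22 to 6.45 in piglets 1, 2 and 6. The endocytic adaptor DAB2 had 6.48 to 7.99 at day 56, against 12.90, 10.90 and 11.55 in the same day 28 piglets 3, 4 and 5 and 6.28 to 9.50 in the other 3. Neither gene was called (exact permutation p = 0.00649 for NEU1 and 0.0671 for DAB2), with differences of -2.20 and -2.40. Cell cycle genes split the same piglets the other way, with list means of 6.63 to 8.23 at day 56, against 8.51, 8.61 and 8.83 in day 28 piglets 1, 2 and 6 and 5.86 to 6.14 in piglets 3, 4 and 5. None of 43 measured cell cycle genes was called higher or lower between the ages. Without piglet 3 the lysosome list had 1 call, and without piglets 2 and 6 it had 7, all lower.

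Genes outside the list but of the same compartment were picked after their values had been seen. GGH, which cleaves folate polyglutamates in lysosomes, measured 7.52, 7.86 and 8.45 at day 56, against 8.55, 10.44 and 11.98 at day 28, and fell by 2.33 ± 0.53 without overlap. NPL, an enzyme of sialic acid breakdown, fell by 2.10 ± 0.54, the fucosidase FUCA1 by 2.15 ± 0.67 (its brighter probeset differed by -1.78 and was not called), SMPDL3A, a phosphodiesterase of the sphingomyelinase family, by 2.08 ± 0.63, and PLBD1, a phospholipase B-like protein, by 2.95 ± 0.87, although its brightest probeset differed by only -0.16. GNPTG, a subunit of the enzyme that tags hydrolases for the lysosome, was dim but separate, at 4.5, 4.66 and 5.03 at day 56, against 5.32, 5.64 and 6.95 at day 28. It fell by 1.09 ± 0.24 (adjusted p = 0.0499), and by 0.86, under 2-fold, without piglet 3. RNF13, a ubiquitin ligase of endosomal membranes, fell by 2.14 ± 0.40 (adjusted p = 0.0308) on the dimmer of its 2 probesets, while the brighter one differed by -0.26 and was not called. RAB32, a small GTPase of lysosome-related organelles, fell by 2.35 ± 0.66, and by 2.12 with no call when day 28 piglet 5 was left out. Leaving out single piglets ended the calls of FUCA1 in 9 of 12 fits, of SMPDL3A in 7 and of PLBD1 in 6, and left those of GGH, NPL and RNF13 standing.

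Day 5 arrays of IN piglets place these levels on a longer course. FUCA1 ran from 12.12 to 12.51 at day 5, from 8.66 to 12.92 at day 28 and from 8.01 to 9.73 at day 56. NEU1 averaged 10.51, 8.22 and 6.01 in the same order. The mean of the whole lysosome list ran from 10.73 to 11.22 over the day 5 piglets, from 8.95 to 10.73 at day 28 and from 9.02 to 9.30 at day 56. Day 28 piglet 3 thus sat at the lower end of the day 5 range and piglets 1, 2 and 6 near the day 56 range, with piglets 4 and 5 between. PIGR ran the opposite way, with averages of 2.39 at day 5, 6.98 at day 28 and 11.19 at day 56. KLRK1 averaged 3.31, 4.65 and 7.61. Not every gene that rose after day 28 had this order. LOC396867 averaged 8.21 at day 5, 4.37 at day 28 and 8.38 at day 56, and VWF averaged 7.3, 5.2 and 6.59. No test was run against day 5.

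**Figure D4:**
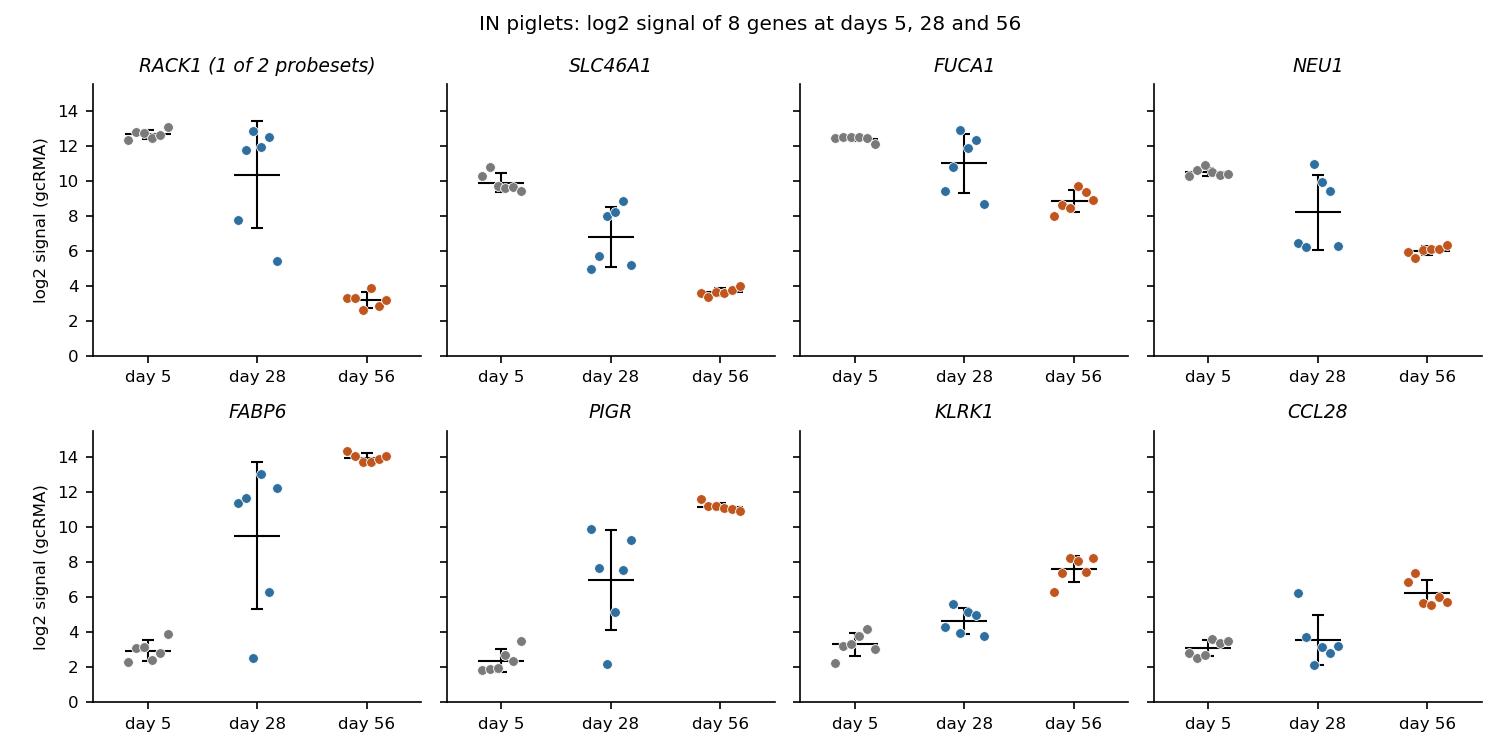
Log2 signal (gcRMA, vertical) of 8 genes in IN piglets at days 5, 28 and 56 (left to right in each panel, 6 piglets a day, line and bars mean and SD). In RACK1 (the probeset of 2 that changed), SLC46A1, FUCA1 and NEU1 the day 28 piglets spread from close to the day 5 level down towards the day 56 level, and in FABP6 and PIGR they spread the other way.

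Single genes of folate, heme, metal and calcium handling fell, and most measured genes of the list of iron, zinc and heme did not pass the test. SLC46A1, the intestinal transporter of folate and heme, measured 3.38, 3.62 and 4.02 at day 56, against 4.95, 6.86 and 8.82 at day 28. No values were shared, and piglets 3, 4 and 5 were the high ones of day 28. It fell by 3.15 ± 0.64 (adjusted p = 0.0398). In the list of iron, zinc and heme genes 3 of 18 measured members fell and none rose, with a median of -0.25. The other members called were HMOX1, which breaks down heme, with 5.22, 5.85 and 7.05 at day 56 against 6.27, 8.22 and 8.83 at day 28, and the metal importer SLC39A14, with 6.62, 6.83 and 7.10 against 6.94, 8.38 and 9.74 in the same order. HMOX1 fell by 1.70 ± 0.50 and SLC39A14 by 1.36 ± 0.42, and each call was lost in several fits without 1 piglet (8 and 10 of 12, p up to 0.0142 and 0.0168), and without day 28 piglet 3 the list had 1 call. Another zinc importer, SLC39A4, differed by 1.52 ± 0.59 and was not called.

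FOLR2, a folate receptor of macrophages, measured 5.10, 5.49 and 6.09 at day 56, against 5.72, 7.41 and 9.18 at day 28, and fell by 1.82 ± 0.48 with some overlap. S100G, the vitamin D-dependent calcium binder calbindin-D9k, was bright and separate, at 10.89, 12.11 and 13.21 at day 56, against 13.29, 13.66 and 13.86 at day 28. It fell by 1.57 ± 0.42 and was the only called gene of 16 measured in the vitamin A and D list. Here the day 56 piglets were the more variable, with an SD of 1.10 against 0.22 at day 28.

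Of the digestive and absorptive genes TMPRSS15, SLC15A1 and SLC2A5 rose, and most members of their lists did not pass the test. TMPRSS15, the enteropeptidase that activates trypsinogen, measured 5.08, 7.45 and 8.18 at day 56, against 3.21, 4.73 and 6.46 at day 28, a rise of 2.33 ± 0.61. SLC15A1, the peptide transporter of the brush border, measured 10.62, 11.39 and 11.62 at day 56, against 8.02, 9.76 and 10.82 at day 28, a rise of 1.58 ± 0.42. Both had overlapping groups. The fructose transporter SLC2A5 rose by 1.69 ± 0.54, a call lost in 9 of the 12 fits without 1 piglet (p up to 0.0208), and the sodium-glucose transporter SLC5A1 differed by 1.2 ± 0.42 and was not called. By list, 1 of 10 measured brush border enzymes and 2 of 11 transporters rose and none fell, with medians of 0.61 and 0.35. The transporter list held 1 call without day 28 piglet 3 and 1 without piglets 2 and 6.

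Enterocyte markers were a little higher at day 56. The 7 measured averaged 12.57 to 12.97 over the day 56 piglets, against 11.34 to 12.75 at day 28, all 7 had a positive difference and 1 was called, SLC15A1. VIL1, the villin of microvilli, had 12.43 to 12.57 at day 56, against 11.03 to 12.33 at day 28, and differed by 0.72 ± 0.19, without overlap but under 2-fold. SLC15A1 is counted both as a marker and as a transporter, so the marker list is not independent of the absorptive genes. What part a shift in markers had in those results was not tested. FABP6 had the greatest positive difference of any gene described here, 4.44 ± 1.55, with no overlap between the groups and an exact permutation p of 0.00216, the smallest possible. Its limma p of 0.0140 missed the limit. Without piglet 3 it was called, with a difference of 3.04 ± 0.96.

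GALT and GALK1 encode 2 steps of the pathway that turns milk galactose into glucose. GALT measured 6.17, 6.65 and 7.71 at day 56, against 7.71, 8.42 and 8.72 at day 28, and fell by 1.53 ± 0.28 (adjusted p = 0.0290). GALK1, picked after its values were seen, measured 5.69, 6.32 and 7.0 at day 56, against 7.04, 7.61 and 8.13 at day 28, and fell by 1.30 ± 0.23 (adjusted p = 0.0252). In each the highest day 56 piglet came close to the lowest of day 28 without passing it. Both calls stood in all 12 fits without 1 piglet.

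Among metabolic genes the smallest p was that of PPARD, a nuclear receptor for fatty acids, which measured 5.98, 6.19 and 6.64 at day 56, against 3.90, 4.30 and 4.73 at day 28. The groups were clearly apart, and the rise of 1.90 ± 0.17 had an adjusted p of 0.00073. The dimmer 2 of the 3 PPARD probesets differed by 0.71 and 0.53 and were not called. EPHX2, the soluble epoxide hydrolase of lipid epoxides, measured 7.30, 8.04 and 9.07 at day 56, against 4.03, 5.25 and 6.30 at day 28, also without overlap. It rose by 2.82 ± 0.42 (adjusted p = 0.0143). In the list of drug and steroid metabolism 4 of 41 measured genes rose and none fell, with a median of 0.26. Without day 28 piglet 3 the list held 2 calls, and without piglets 2 and 6 it held 3, with a median of -0.0. The 4 genes that rose were EPHX2, the efflux pump gene ABCB1, the glutathione transferase gene MGST1 and the quinone reductase gene NQO1. ABCB1 rose by 1.34 ± 0.24 (adjusted p = 0.0252), MGST1 by 1.07 ± 0.27 and NQO1 by 1.0 ± 0.33. MGST1 went below 2-fold without day 28 piglet 3, at 0.88, and without piglet 5, at 0.95, and the NQO1 call ended in 8 of the 12 fits. GSTA1 differed by 1.81 ± 0.64 and CYP1A1 by 0.87 ± 0.23, and neither was called.

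NR5A2, a nuclear receptor of intestinal crypts, rose by 1.72 ± 0.30 (adjusted p = 0.0233) on the probeset of smallest p, while its other 4 probesets differed by 0.28 to 1.04 and were not called. OXCT1, the mitochondrial enzyme that uses ketone bodies, measured 7.05, 7.38 and 7.88 at day 56, against 4.63, 6.09 and 6.77 at day 28, and rose by 1.62 ± 0.35 without overlap (adjusted p = 0.0492), while its brighter probeset differed by 0.94 and was not called. KMO, which hydroxylates kynurenine in tryptophan breakdown, went the other way with 7.20, 7.38 and 8.47 at day 56, against 8.52, 9.34 and 9.71 at day 28. It fell by 1.62 ± 0.26 (adjusted p = 0.0189). None of 29 measured genes of fatty acid oxidation and ketone synthesis was called, nor any of 46 of oxidative phosphorylation.

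In lipid handling APOE, the apolipoprotein of remnant particles and macrophages, measured 7.01, 8.01 and 8.64 at day 56, against 8.15, 10.23 and 12.50 at day 28, and fell by 2.14 ± 0.66. Day 28 piglets 2, 3 and 6 were highest, and the call ended in 7 of the 12 fits without 1 piglet and without piglets 2 and 6, where the difference was -1.69. APOC2, the activator of lipoprotein lipase, was at 2.32 to 3.49 at day 56, against 13.02, 10.70 and 7.19 in day 28 piglets 3, 4 and 5 and 2.46 to 5.01 in the other 3. The APOC2 difference of -4.24 ± 1.58 was not called (adjusted p = 0.215). AGPAT2, an acyltransferase of triglyceride synthesis, rose by 1.5 ± 0.42 without overlap (9.45, 9.96 and 10.44 at day 56, against 6.89, 8.84 and 9.42 at day 28), and LCAT, which esterifies cholesterol in plasma, rose by 2.25 ± 0.68 with overlap. The LCAT call ended in 6 of the 12 fits without 1 piglet (p up to 0.0159). Without piglets 2 and 6 neither was called, with differences of 1.32 for AGPAT2 and 2.18 for LCAT.

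Cholesterol synthesis genes leaned higher at day 56. Of 13 measured 2 rose and none fell, with a median of 0.85. CYP51, the lanosterol demethylase, measured 10.88, 11.09 and 11.52 at day 56, against 9.23, 9.95 and 10.77 at day 28, without overlap, and rose by 1.10 ± 0.25. HMGCS1, which makes the precursor of mevalonate, rose by 1.41 ± 0.41, and squalene epoxidase SQLE, at 6.51 to 8.74 against 4.02 to 7.93, narrowly missed the limit with 2.13 ± 0.70 (adjusted p = 0.165). Leaving out day 28 piglet 4 took CYP51 to 0.94, and leaving out single piglets ended the HMGCS1 call in 6 of 12 fits (p up to 0.0124). The list held 1 call without piglet 3 and 5 without piglets 2 and 6.

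In vessels and epithelium, changes ran both ways. LYVE1, a hyaluronan receptor of lymphatic vessels, measured 5.03, 5.44 and 5.72 at day 56, against 5.80, 6.91 and 7.74 at day 28, and fell by 1.38 ± 0.27 (adjusted p = 0.0360), while another LYVE1 probeset of similar level differed by -0.42 and was not called. VWF, the clotting factor carrier made by blood vessel endothelium, measured 5.85, 6.6 and 7.56 at day 56, against 4.45, 5.28 and 5.66 at day 28, and rose by 1.39 ± 0.31 (adjusted p = 0.0499). Neither gene's groups overlapped. The other 13 of 15 measured endothelial genes were not called, among them PECAM1 at -0.66 and TEK at -0.77, and the list median was 0.0. UCHL1, a protein of neurons, fell by 1.47 ± 0.45, the only called gene of 11 measured neuronal and glial markers, and its call ended in 9 of the 12 fits without 1 piglet (p up to 0.0163).

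Among epithelial junction genes JUP, the plakoglobin of desmosomes, rose by 1.63 ± 0.39, and the claudin CLDN10 fell by 1.85 ± 0.56, which were the called members of 12 measured. The CLDN10 call ended in 7 of the 12 fits without 1 piglet (p up to 0.0154). Picked after seeing their values, SHROOM3, which shapes the apex of epithelial cells, rose by 1.52 ± 0.28 (adjusted p = 0.0289), and TCF7L2, the Wnt pathway factor of crypt cells, rose by 1.48 ± 0.29 (adjusted p = 0.0330). The other TCF7L2 probeset averaged 5.0 at day 56 and 4.93 at day 28, differed by 0.07 and was not called. For LMNA, the A-type lamin of the nuclear envelope, 1 probeset rose by 2.57 ± 0.46 (adjusted p = 0.0258) and the brighter one differed by 0.83 and was not called.

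The greatest fall of any probeset annotated to a gene belonged to 1 of the 2 probesets named RACK1. It measured 2.61, 3.25 and 3.88 at day 56, against 5.41, 11.83 and 12.84 at day 28, where piglets 1 and 6 were the low ones at 7.74 and 5.41. It fell by 7.18 ± 1.14 (adjusted p = 0.0189), and it had been at 12.33 to 13.05 in all 6 piglets at day 5. RACK1 encodes a scaffold protein of the small ribosomal subunit. The other RACK1 probeset averaged 12.69 at day 56 and 12.80 at day 28 and differed by -0.11, and none of 58 measured ribosomal protein genes was called, so the 2 probesets disagree and the name of the first is uncertain.

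By the size of their change among probesets that met both rules, the other leading genes were these. LOC396867, for which no gene name was found, measured 6.71, 8.33 and 10.48 at day 56, against 2.78, 3.85 and 7.62 at day 28, and rose by 4.01 ± 0.82 (adjusted p = 0.0405). Day 28 piglet 1 was the single piglet of that day inside the day 56 range. GRAMD1B, which moves cholesterol from the plasma membrane, rose by 2.20 ± 0.33. Further down that order LOC100522818 rose by 2.0, the adhesion receptor gene ADGRG1 by 1.73, TIAM2 by 1.65 and FAR1, a fatty acyl reductase, by 1.63. The study gave the ADGRG1 probeset the name PDE1B, so its gene is uncertain. QSOX1, an enzyme that forms disulphide bonds, was dim but had the smallest p of the named genes that fell, at 2.42, 2.74 and 3.03 at day 56, against 3.77, 4.13 and 4.61 at day 28, and fell by 1.46 ± 0.15 (adjusted p = 0.00186). The other QSOX1 probesets, one of them brighter, differed by -0.13 and -0.06. ADM, the vasodilator adrenomedullin, fell by 1.43 ± 0.25 (5.11, 5.34 and 5.52 at day 56, against 6.09, 6.58 and 7.67 at day 28). KIAA0930 fell by 2.56, COPRS by 2.20, PARM1 by 1.90, POLR1E by 1.68, NUDT14 and C1H9orf16 by 1.47 each, PPM1F by 1.42 and MRRF by 1.41, all with an adjusted p below 0.05.

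In 22 of the 43 lists no member was called. Single members fell in the clock list (DBP, -1.02, of 7 measured) and among heat shock proteins (BAG3, -1.08, of 25). When the probeset of smallest p stood for each gene, the heat shock list instead had 1 call higher and 0 lower. The 22 lists included type I interferon-induced genes (26 measured, median 0.70, and 0.15 without day 28 piglet 3), MHC class I (15, median 0.38) and class II genes (14, median 0.30), macrophage and dendritic cell markers (21, median 0.33, and without that piglet 0.18, 0.04 and -0.01 for these 3 lists), goblet cell markers (7, median 0.22), enteroendocrine markers (14, median -0.26), smooth muscle (15, median 0.16) and extracellular matrix (33, median 0.15). Markers of pancreas, fat and red blood cells, which check what the tissue piece might hold besides gut, also had no call, with medians of -0.06, 0.03 and -0.36. Of the genes that the study had chosen for PCR, CCL28 and PI3 were called, as given above, and SQLE and CXCR4, also given above, were not. Nor were the others found by symbol. The chemokine gene CCL8 differed by 1.70 ± 0.74, interferon-induced IFIT2 by 1.02 ± 0.81 and the transferrin receptor gene TFRC by 0.89 ± 0.87. This TFRC probeset is not the one the study listed at day 5, and without day 28 piglets 2 and 6 it was called, at 1.67. CXCL9 differed by 0.50 ± 1.34, with 7.81 to 9.83 at day 56 inside the 2.51 to 13.16 of day 28, and IRF7 by 0.50, CXCL12 by -0.38, FKBP5 by -0.21 and PDK4 by 0.13.

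The same interval was then set beside that of OUT and IR piglets, fitted from their own arrays. Between day 56 and day 28, 318 probesets were called higher (1.33%) and 310 lower (1.3%) in OUT piglets, and 349 higher (1.46%) and 369 lower (1.54%) in IR piglets. Of the 293 probesets that rose in IN piglets, 83 also rose in OUT piglets (28.3% of the IN calls and 26.1% of the OUT calls) and 76 in IR piglets (25.9% and 21.8%). Of the 180 that fell in IN piglets, 56 also fell in OUT piglets (31.1% and 18.1%) and 62 in IR piglets (34.4% and 16.8%). Signs were shared more often than calls, since 257 of the 293 had a positive difference in OUT and 246 in IR, and 167 and 165 of the 180 a negative one. The median change of the 293 was 1.36 in IN, 0.76 in OUT and 0.57 in IR piglets, and that of the 180 was -1.34, -0.95 and -0.78. The IN values there are those by which the probesets were picked, so they are larger by choice.

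Several leading genes were called in all 3 kinds of rearing. PPARD rose by 1.90 in IN, 1.39 in OUT and 1.68 in IR piglets, EPHX2 by 2.82, 2.85 and 3.85, and PIGR by 4.21, 2.62 and 1.47 in the same order. SLC46A1 fell by 3.15 in IN, 2.83 in OUT and 3.0 in IR piglets, GALT by 1.53, 2.02 and 1.74, GALK1 by 1.30, 1.83 and 2.05, QSOX1 by 1.46, 1.34 and 1.25, and ADM by 1.43, 1.56 and 1.42. For these 8 genes no difference between the changes was called over all 24 arrays. Without IN day 28 piglets 2 and 6 that of PIGR between IN and IR was called, at 3.49. The estimates of IN minus OUT ran from -0.32 ± 0.91 for SLC46A1 to 1.59 ± 1.29 for PIGR, and those of IN minus IR from -1.03 ± 0.84 for EPHX2 to 2.74 ± 1.14 for PIGR (adjusted p = 0.519). FABP6, not called in IN, rose by 2.46 in OUT and by 4.67 in IR piglets.

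Whether the changes themselves differed was tested as an interaction over 24 arrays each. Against OUT, 172 probesets were called (0.719%), 131 with the IN change more positive and 41 with it more negative. Against IR, 278 were called (1.16%), 213 more positive and 65 more negative, and 51 probesets were called against both. With limma and Benjamini-Hochberg adjustment no probeset had an adjusted p below 0.05 in either test. The smallest adjusted p was 0.615 against OUT and 0.242 against IR, and 1727 and 2044 probesets had an unadjusted p below 0.05. These counts depended on single piglets. Without day 28 IN piglet 1 they were 389 against OUT and 503 against IR, and in the second of these fits 52 probesets had an adjusted p below 0.05.

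Against IR, the 8 named genes of smallest p were MSMO1, CYP51, FDPS, TRAM2, SREBF2, SQLE, PSMB10 and SC5D, of which 6 belong to cholesterol synthesis or its control. MSMO1, a sterol oxidase, changed by 0.87 in IN piglets and by -1.65 in IR piglets, a difference of 2.52 ± 0.48 (adjusted p = 0.242). IN piglets averaged 10.62 ± 0.44 at day 56 and 9.75 ± 0.82 at day 28 (SD). The IR piglets of day 28 were the highest of the 4 groups at 11.65 ± 0.52. They had been kept in isolators, fed milk replacer and given antibiotics, and the effects of these cannot be told apart. SQLE changed by 2.13 in IN and -2.02 in IR piglets and CYP51 by 1.10 and -0.73. SREBF2, the transcription factor that drives these genes, changed by 0.84 and -0.29. Over the list of 13 genes 7 fell in IR piglets, where the median was -1.21, none rose there, and the interaction was called for 11, all with the IN change more positive. The share of all probesets called in that test, in either direction, was 1.16%. In OUT piglets the list had a median of 0.18 and 1 gene fell.

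Some immune genes also differed in their change between IN and IR piglets by the unadjusted test. The share called over all probesets was 1.16%, and 213 of those 278 calls also had the IN change more positive. The interaction was called for 4 of 8 measured cytotoxic genes, 2 of 7 plasma cell and IgA genes, 5 of 25 chemokine genes, 3 of 40 cytokine genes and 3 of 27 antimicrobial genes, all with the IN change more positive. It was called in the same direction for 2 of 15 MHC class I and peptide loading genes and 1 of 24 complement genes. It was called for none of the 13 T cell, 26 type I interferon-induced, 21 macrophage, 14 MHC class II and 5 B cell genes. GNLY changed by 2.25 in IN and -1.56 in IR piglets (difference 3.81 ± 1.22), IFNG by 1.48 and -1.89 (3.37 ± 1.0), CCL5 by 1.85 and -0.30 (2.16 ± 0.71) and KLRK1 by 2.96 and 0.82 (2.14 ± 0.71). All 4 were called, with unadjusted limma p between 0.00267 and 0.0062. PI3 changed by 3.22 and -1.43, a difference of 4.65 ± 1.17 (adjusted p = 0.295), and CCL8 by 1.70 and -2.21, a difference of 3.91 ± 0.95 (adjusted p = 0.256). In PI3 the IN piglets were the higher at day 56 (10.97 against 8.06 in IR) and the lower at day 28 (7.75 against 9.50 in IR). The IgA genes CCL28, TNFSF13, TNFRSF17 and CD38 were called too, with differences of 2.84, 1.08, 1.22 and 2.51. Of the lymphocyte genes CD3G and CCR9 were not called, with differences of 1.51 ± 0.87 and 1.54 ± 0.83.

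**Figure D5:**
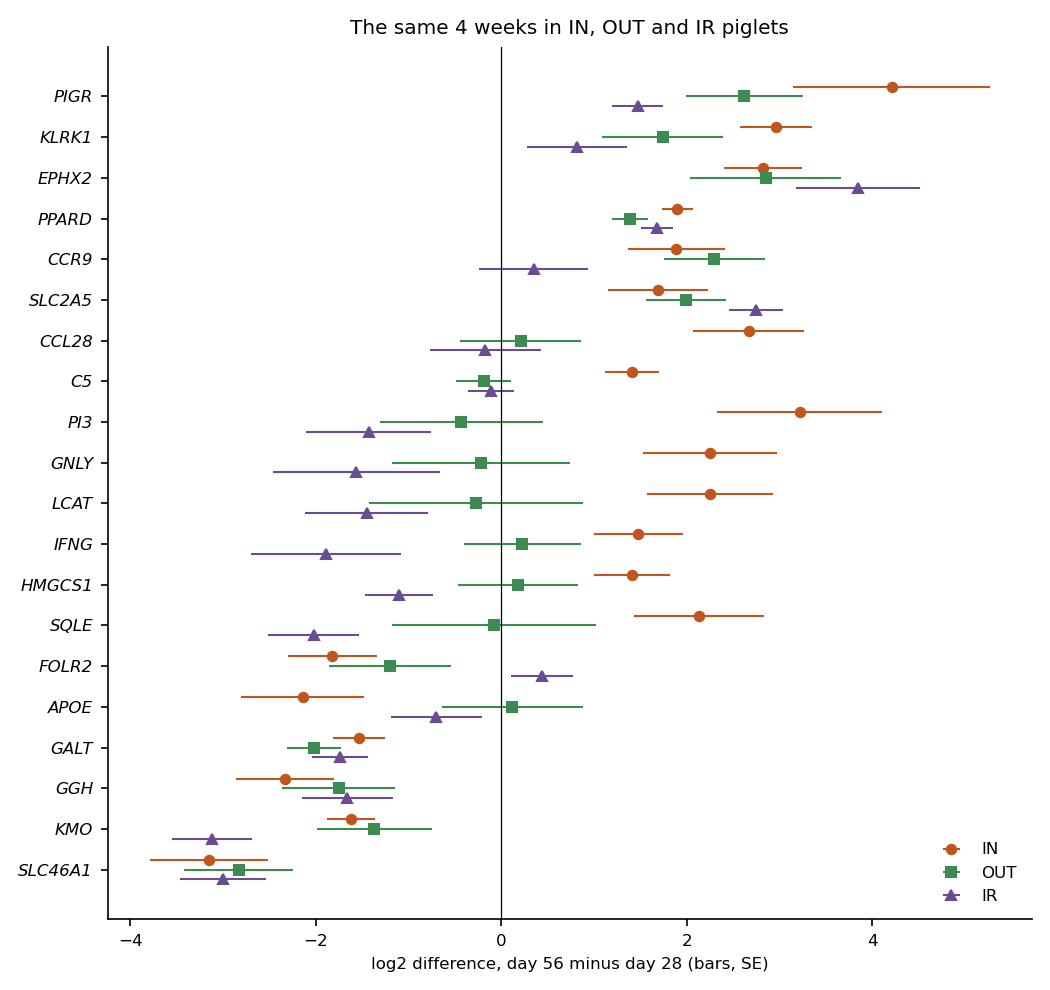
Log2 difference between day 56 and day 28 (horizontal, bars SE) of 20 genes in IN, OUT and IR piglets, each from 12 arrays of its own rearing. PPARD, EPHX2, GALT and SLC46A1 have similar differences in all 3, whereas PI3, GNLY, IFNG, HMGCS1 and SQLE are positive in IN and negative in IR.

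Against OUT, the 8 named genes of smallest p were OGDH, UTP14A, VNN2, PCSK7, ESRP1, COPS7A, OVOL1 and RHOF, with unadjusted p between 0.00035 and 0.00084 and an adjusted p of 0.615 each. VNN2, a pantetheinase, was the only one of them called in IN piglets, at 3.95, 4.20 and 5.16 at day 56, against 2.37, 2.99 and 3.50 at day 28. It rose by 1.41 in IN and changed by 0.27 in OUT piglets, a difference of 1.14 ± 0.29. OVOL1, a transcription factor of epithelia, changed by 0.59 in IN and -1.06 in OUT piglets, and ESRP1, a splicing factor of epithelial cells, by 0.88 and -0.57. Complement C5 changed by 1.41 and -0.19, a difference of 1.60 ± 0.43, and it was called against IR as well (1.53 ± 0.40). AGPAT2, JUP, C9 and LMNA were also called against OUT, with differences of 1.82, 1.71, 1.05 and 2.48. For the cytotoxic genes KLRK1, GNLY, CCL5 and IFNG the test against OUT gave p between 0.0621 and 0.219, with differences of 0.96 to 2.47.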

How the data were processed

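RNA of whole ileal tissue was hybridised to GeneChip Porcine Genome arrays, 1 per piglet, and the authors scanned them with GCOS 1.2 and normalised them by gcRMA. The values the authors deposited are log2 signals (-0.18 to 14.72 on the 12 arrays used) and were not transformed again; gcRMA shrinks dim probesets towards a common floor, so differences of dim genes are uncertain. Of 24123 probesets 188 controls were left out and 23935 tested, with no filter on dim probesets. Symbols came from the platform annotation, which gave 1 symbol to 10069 of these, several to 198 and none to 13668. Groups followed the sample titles. limma 3.58.1 (lmFit and eBayes, R 4.3.3) was fitted to the 12 IN arrays, and the interactions to 24 arrays each, with no block, since the labels do not name the animal run that the study used as one. p-values were adjusted by Benjamini-Hochberg over all probesets. Single genes were also tested by two-sided exact permutation of the 924 divisions of 12 piglets. The scripts were tested on simulated data. Figures used matplotlib 3.10.9.

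The compared samples, the gene lists and the genes were chosen with earlier results of these data known. The naming rule took the 15 genes of largest change in each direction with an adjusted p below 0.05, the 5 or fewer genes of lowest p in every list, the 8 genes of smallest p in each interaction, and the genes the study chose for PCR. JAML, SLPI, NEU1, HEXA, DAB2, PLBD1, GGH, NPL, FUCA1, SMPDL3A, GUSB, GNPTG, RAB32, FOLR2, GALK1, NQO1, GSTA1, OXCT1, LCAT, SHROOM3 and TCF7L2 lie outside it and were chosen after their values were seen. A list was counted by the brightest probeset of each gene. Alternatives were blocks by label number, other sets of arrays, a filter on dim probesets (a log2 value of 4 in at least 6 arrays), renewed quantile normalisation, median centring, array weights, a robust intensity trend, and each array left out. Leaving out day 28 piglets 2 and 6 together was chosen after seeing the data.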

Additional observations from a re-analysis of the deposited data

Results flagged for a closer look

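Of 230 groups of 6 piglets checked gene by gene, 18 had a single piglet farther from the rest than Dixon's critical value of 0.625 allows, where chance gives about 1 in 20 groups. Day 28 piglet 3 was such a piglet for JCHAIN (4.70, the others 10.91 to 12.29), CCL5 (6.23, the others 8.76 to 10.15) and DUOX2 (1.79, the others 3.12 to 3.53) on the low side, and for CTSH (13.45, the others 11.11 to 11.68) and GNPTG (6.95, the others 5.32 to 5.86) on the high side. Other day 28 piglets stood out once each: piglet 6 for the transferrin receptor gene TFRC (8.47, the others 2.81 to 4.77), piglet 2 for OGDH (7.93, the others 8.91 to 9.32) and piglet 1 for OVOL1 (6.57, the others 5.34 to 5.73). At day 56, piglet 1 was low for GNLY (6.20), CD3G (6.93), JAML (8.52) and C9 (11.43), whose other piglets had at least 7.95, 8.07, 9.21 and 11.69. Day 56 piglet 2 was high for PI3 (13.38, the others 9.72 to 11.05) and COPRS (5.85, the others 4.43 to 4.74) and low for SLC2A5 (7.47, the others 8.70 to 9.25). Day 56 piglet 5 was high for CLDN10 (5.74, the others 3.49 to 4.25) and GRAMD1B (8.09, the others 5.82 to 6.53), and piglet 6 was low for SREBF2 (5.84, the others 6.13 to 6.31).

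Interactions were checked for 115 of the genes described. By the unadjusted interaction test and at least 2-fold, the change between day 56 and day 28 differed between IN and OUT piglets for 13. Over all probesets 0.719% were called in that test. IN minus OUT was 1.60 for C5, 1.05 for C9, 1.82 for AGPAT2, 1.71 for JUP, 2.48 for LMNA, 1.14 for VNN2, 1.22 for OGDH, -1.22 for UTP14A, 1.24 for PCSK7, 1.45 for ESRP1, 1.14 for COPS7A, 1.64 for OVOL1 and 1.29 for RHOF, on the log2 scale. The change differed between IN and IR piglets for 29 of the 115, where 1.16% of all probesets were called. Some of these genes were named for their small p in the same tests and others for their change in IN piglets. Both counts are therefore high by choice. In immune and defence genes IN minus IR was 2.84 for CCL28, 1.08 for TNFSF13, 1.22 for TNFRSF17, 2.51 for CD38, 2.14 for KLRK1, 3.81 for GNLY, 2.16 for CCL5, 3.37 for IFNG, 2.31 for IL18BP, 4.65 for PI3, 2.86 for BPI, 1.53 for C5, 2.09 for PSMB10 and 3.91 for CCL8. In cholesterol and lipid genes it was 3.70 for LCAT, 2.51 for HMGCS1, 1.83 for CYP51, 4.14 for SQLE, 1.13 for SREBF2, 2.52 for MSMO1, 2.46 for FDPS and 2.09 for SC5D. For the rest it was -2.26 for FOLR2, 2.97 for TMPRSS15, 1.5 for KMO, 1.07 for SHROOM3, 1.15 for PCSK7, 1.79 for OVOL1 and 1.18 for RHOF. After adjustment over all probesets no gene of either interaction had a limma adjusted p below 0.05.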

How the results depend on the processing

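The 473 calls between day 56 and day 28 stayed within 1.5 times of that count under every alternative run except one: an adjusted p below 0.05 together with a 2-fold change left 164. Leaving out each piglet in turn gave 388 to 534 calls, and 49 to 336 probesets with an adjusted p below 0.05. That adjusted count was 320 in the fit reported, 1271 with all 9 groups in 1 fit, 837 with the 3 IN groups in 1 fit, 193 without dim probesets and 95 with numbered arrays only. The label numbers were not used to pair piglets. The deviations of same-numbered piglets correlated at 0.337, 0.449, -0.153, 0.328 and -0.275, and a replicate block by number, over 10 arrays, gave 385 calls and 0 with an adjusted p below 0.05, against 375 and 18 with a block of numbers in twos. Of the 70 called genes followed through the alternatives, 22 were not called with the block by number and 23 with the block in twos. With at least 1 of these blocks 31 were not called. For 24 of these 31, leaving out some single piglet also ended the call. The other 7 were TMPRSS15 (both blocks), DUOX2, S100G and JUP (by number) and CCR9, JAML and AGPAT2 (in twos).

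The interaction with OUT, 172 calls, gave 301 with all 9 groups in 1 fit, 106 to 389 when single piglets were left out (106 without OUT day 56 piglet 2, 110 without IN day 28 piglet 2, 261 without OUT day 56 piglet 3 and 389 without IN day 28 piglet 1), 96 without IN day 28 piglets 2 and 6, and 0 by adjusted p, while the block in twos gave 155. The interaction with IR, 278 calls, gave 206 to 503 when single piglets were left out (503 without IN day 28 piglet 1), 644 without IN day 28 piglets 2 and 6, 201 with the block in twos and 0 by adjusted p. The cause of these shifts was not tested.

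The alternatives were followed for 115 of the genes described, of which 70 were called. Genes given only by name and change, such as LOC100522818, TIAM2, POLR1E, DBP and BAG3, were not among them. Under every setting that tested them, 36 of the 70 were called. The filter on dim probesets removed QSOX1 and VNN2, both counted in the 36, and also IFNG and DUOX2, so it did not test these genes. Over 766 pairs of a called gene and a setting other than leaving out each piglet in turn, 673 were still called and 0 reversed. Some of these settings also used fewer piglets. The one with numbered arrays only was the same fit as that without the unnumbered day 56 piglet. Over 840 pairs from leaving out each piglet in turn, 684 were still called. The sign turned in 3 genes that were not called: CXCL9 (-0.81 with the replicate block, and -0.70 to 1.43 when single piglets were left out, lowest without day 28 piglet 3), IRF7 (-0.20 with the block, and -0.11 to 0.98, lowest without the same piglet) and PDK4 (-0.00 with the block, -0.01 with array weights, and -0.15 to 0.35, lowest without day 28 piglet 6 and -0.03 without piglet 3). Arrays carry no read depth, and signals near the gcRMA floor limit what can be seen in dim genes such as IFNG, QSOX1 and GNPTG.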
